A study of Homo sapiens with 6 samples.

Results

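A cassette exon is an exon that some transcripts of a gene include and others skip. In the deposited intron tables each such exon appears as a set of 3 listed introns on the same strand: an outer intron that joins the exons on either side, and a pair of inner introns that share its ends and leave an exon of 20 to 500 nt between them. There were 9956 such triples among 241593 listed introns. Those with at least 50 spliced reads over the inner introns, as a mean over the 6 libraries, were kept, which left 5641 triples in 3538 genes. They hold 5373 outer and 10641 inner introns, so triples are not all separate: 503 share their outer intron with another triple and 671 share an inner one. All 6 libraries came from K562, an established human erythroleukaemia cell line that carries the BCR-ABL fusion. It had been transduced with a first shRNA against ZRSR2 (sh1, 2 libraries), a second shRNA against ZRSR2 (sh2, 2 libraries) or a control shRNA (Con_sh, 2 libraries). The labels number the 2 libraries of a group as experiments and do not say whether they were separate cultures, nor how long after transduction RNA was taken. P-values therefore measure the spread between these libraries, which may be technical. RNA was poly(A)-selected. Positions are given on GRCh38: the submitters' processing notes name hg19, but 95.6% of the listed introns lie inside GRCh38 genes as deposited, against 62.6 and 62.9% when shifted by 100 kb either way.

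Cassette exons are chosen or passed over by the spliceosome as it pairs splice sites across the flanking introns, and proteins such as the SR proteins, the hnRNPs, RBFOX, MBNL and PTB families shift the choice. Nearly all human introns are removed by the major (U2-type) spliceosome, and a small class by the minor (U12-type) spliceosome. ZRSR2 is a protein of the minor spliceosome that recognises the 3′ splice site of U12-type introns, and it is mutated in myelodysplastic syndromes. The series title names the splicing of U12-type introns as its subject, and the skipping of exons is another readout of the same libraries.

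Skipping is given as the reads over the outer intron as a percent of the mean reads over its inner introns. A spliced read is counted at every listed intron that its gap spans, so the inner counts include the outer reads and skipping runs from 0 to 100%. For the same reason an outer count also holds reads with a longer gap: the outer introns of 1276 triples lie inside another listed intron that has reads. No triple had an inner count under its outer count in any library.

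The libraries held between 82986327 and 101120454 spliced reads over the listed introns. Spliced reads of ZRSR2 itself, scaled to each library's spliced total as RPM, were 9.94 and 9.82 in sh1, 9.50 and 11.4 in sh2, and 25.7 and 21.5 in Con_sh. Every shRNA library against ZRSR2 lay below both control libraries (two-sided exact permutation test, p = 0.133, the smallest p that 4 against 2 libraries can give). All 10 K562 markers had spliced reads, summing to between 5509 and 11259 RPM in sh1, between 8443 and 18849 in sh2 and between 4493 and 6015 in Con_sh. Markers of other blood cells summed to between 156 and 239 in sh1, between 118 and 187 in sh2 and between 131 and 155 in Con_sh, and epithelial and stromal markers to between 115 and 126 in sh1, between 111 and 133 in sh2 and between 150 and 151 in Con_sh. No marker of either list was at 0 in every library. The embryonic globin gene HBE1 set 2 libraries apart. It had 1334 and 175 RPM of spliced reads in sh1, 4495 and 719 in sh2, and 307 and 245 in Con_sh. Replicate 1 of sh2 and replicate 1 of sh1 were the highest. The same libraries were also the highest for HBG1, HBG2, HBZ and TAL1. Other K562 markers did not set replicate 1 of sh1 apart. It had the lowest GYPC (202 RPM) and TFRC (838 RPM) of all libraries. Its GATA1 (168 RPM) and KLF1 (35.3 RPM) were no higher than in Con_sh replicate 2 (168 and 39.0 RPM). Replicate 1 of sh2 had the highest GATA1 (241 RPM), KLF1 (77.0 RPM) and GYPC (517 RPM) of all libraries, but not the highest TFRC (1087 RPM).

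The triples kept covered the whole range of skipping. Mean skipping was under 5% in 577 triples, 5 to 25% in 1061, 25 to 75% in 1986, 75 to 95% in 923 and over 95% in 1094. As inner counts include the outer reads, a listed exon without inclusion reads can be kept on skipping reads alone. A 54 nt exon of MAPT had means of 55.5 inner and 55.5 outer reads. The class over 95% therefore holds listed exons with almost no inclusion in these cells, and its size depends on the rule for keeping triples. The exon was longest where it was nearly always included: its median length was 165 nt in the class under 5%, 135 nt at 5 to 25%, 91 nt at 25 to 75%, 87 nt at 75 to 95% and 89 nt over 95%, against 108 nt over all triples. A length divisible by 3, which lets an exon be skipped without a change of reading frame if it is coding, was found in 3291 triples, or 58.3%. By class that share lay between 54.6 and 60.9%.

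**Figure D1:**
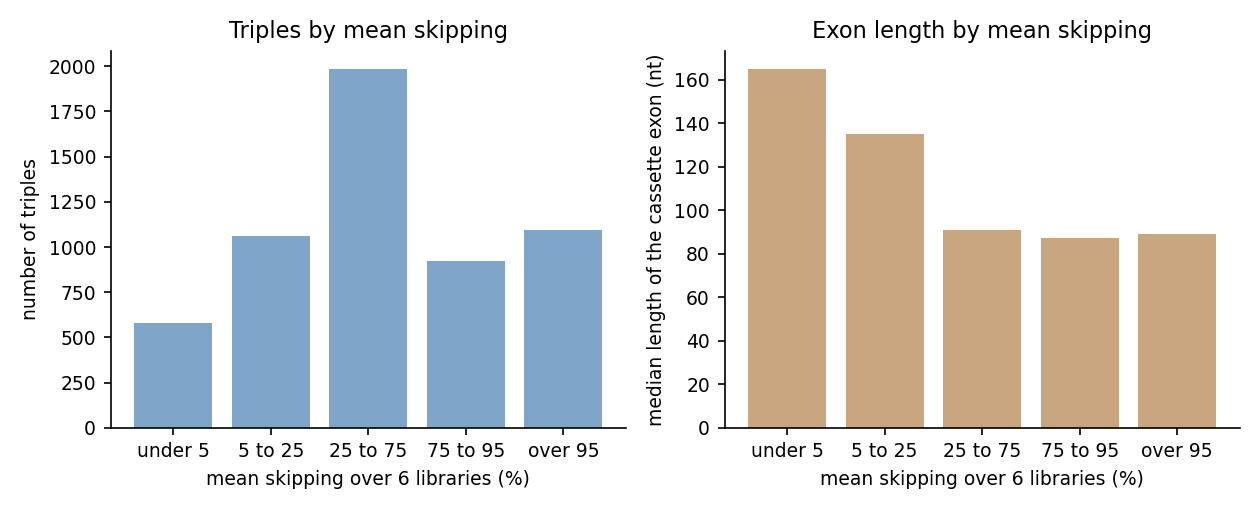
Number of triples (left) and median length of the cassette exon in nt (right) by mean skipping over the 6 libraries. The middle class holds the most triples (1986), and the median exon is 165 nt in the class under 5% and 89 nt in the class over 95%.

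Cassette exons of well studied genes lay at levels from mostly included to nearly always skipped. The gene lists below were drawn up with earlier results of these data known, and every measured triple of a listed gene counts, whichever exon it holds. U2AF1, the major-spliceosome relative of ZRSR2, has a pair of mutually exclusive 67 nt exons. Skipping at one of them was 52.5 and 54.0% in sh1, 53.2 and 52.3% in sh2, and 56.3 and 53.6% in Con_sh. At the other it was 90.6 and 90.5% in sh1, 89.8 and 90.5% in sh2, and 87.4 and 90.9% in Con_sh. A read that joins one of these exons can also be counted at an inner intron of the other. The percents are therefore not shares of the pair and do not measure which exon was used. The groups overlapped for both exons.

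HNRNPA1, an hnRNP protein that represses splice sites, skipped a 156 nt exon in 95.4 and 95.4% of reads in sh1, 95.5 and 95.8% in sh2, and 95.2 and 95.5% in Con_sh. It had the most reads of the splicing regulators, and its libraries stayed within 1 percentage point. The other splicing regulators with the highest skipping were RBFOX2 (a 32 nt exon, between 99.7 and 100% in every library), PTBP3 (34 nt, between 94.9 and 98.1%) and TRA2A (90 nt, between 92.3 and 96.8%). Of the outer reads, 68.9% in RBFOX2 and 73.3% in TRA2A also span a longer listed intron. In another triple over the same TRA2A exon, not used below, skipping was 84.9 and 86.3% in sh1, 71.2 and 83.8% in sh2, and 63.7 and 85.6% in Con_sh. Among the genes known for alternative exons, a 54 nt exon of CLTA, the clathrin light chain A, was skipped in 100% of reads in every library to 3 digits, as was a 54 nt exon of MAPT, which encodes tau. A 24 nt exon of MEF2C, a muscle and neuronal transcription factor, was at 99.9% or above, and so was a 39 nt exon of EXOC7, an exocyst subunit. Exons of the last 4 genes, all in the class over 95%, left almost no inclusion reads to compare, and no log2 change is given for them or for RBFOX2.

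A 126 nt exon of EZH2, the catalytic subunit of PRC2, chosen here after its values were seen, was mostly included, with skipping of 13.6 and 13.9% in sh1, 8.81 and 9.02% in sh2, and 10.2 and 10.9% in Con_sh. At this exon both sh1 libraries lay above, and both sh2 libraries below, the controls. Its log2 change in the ratio of skipping to inclusion reads over both shRNAs was 0.09 (SE 0.14, edgeR adjusted p = 0.972). A 117 nt exon of EZH2 was at 39.0 and 36.5% in sh1, 36.2 and 33.4% in sh2, and 34.2 and 37.3% in Con_sh, with the groups overlapping.

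To compare the groups, edgeR's quasi-likelihood test was run on the ratio of skipping to inclusion reads in the 5443 triples with at least 5 outer reads on average, with all 6 libraries in the fit. Changes below are log2 changes in that ratio. No triple passed an adjusted p of 0.05 over both shRNAs against control (edgeR, 0.0% of those tested, lowest adjusted p = 0.212). At an unadjusted p under 0.05 there were 317 triples, or 5.82% of those tested, of which 89 were higher and 228 lower. DESeq2, with the same design, called 21 triples in 13 genes (0.386% of those tested), 12 higher and 9 lower. Of the 12 higher calls 7 are in 1 gene of the erythroid and megakaryocytic list and are not described; leaving that gene out, 5 calls were higher and 9 lower. All 21 had an unadjusted edgeR p under 0.05, and their highest adjusted edgeR p was 0.622.

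For sh1 against control edgeR called 1 triple, in MYL6 (0.0184% of those tested; 5.33% at an unadjusted p under 0.05), and DESeq2 16 (0.294%, and 3.88% unadjusted). For sh2 against control edgeR called none (0.0%, lowest adjusted p = 0.347; 338 triples, or 6.21%, at an unadjusted p under 0.05) and DESeq2 11 (0.202%, and 4.35% unadjusted). These comparisons share the 2 control libraries. For sh1 against sh2 edgeR called 1 triple, again in MYL6 (0.0184%; 6.8% at an unadjusted p under 0.05), and DESeq2 12 (0.22%, and 4.85% unadjusted).

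Median skipping overlapped between the groups. Over the 5641 triples it was 53.4 and 54.0% in sh1, 51.0 and 52.7% in sh2, and 52.4 and 53.9% in Con_sh. The mean of the ZRSR2 shRNA libraries less that of the controls was -0.406 percentage points (two-sided exact permutation test, p = 0.933), and it was 0.183 without sh2 replicate 1 and 0.339 without Con_sh replicate 2. The median log2 change was -0.06 over both shRNAs, -0.02 for sh1, -0.11 for sh2 and 0.09 for sh1 against sh2. The median absolute difference was 1.71 percentage points between the sh1 replicates, 1.96 between the sh2 replicates and 2.04 between the Con_sh replicates. The mean of the ZRSR2 shRNA libraries differed from the control mean by over 10 points in 146 tested triples, 49 of them higher, and by over 20 points in 10, 4 of them higher. All 4 ZRSR2 shRNA libraries lay on one side of both controls in 736 triples (13.5% of those tested), 229 higher (4.21%) and 507 lower (9.31%). With libraries in random order, 4 against 2 would not overlap with a probability of 0.133, close to that share. A lack of overlap by itself therefore does not set an exon apart.

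**Figure D2:**
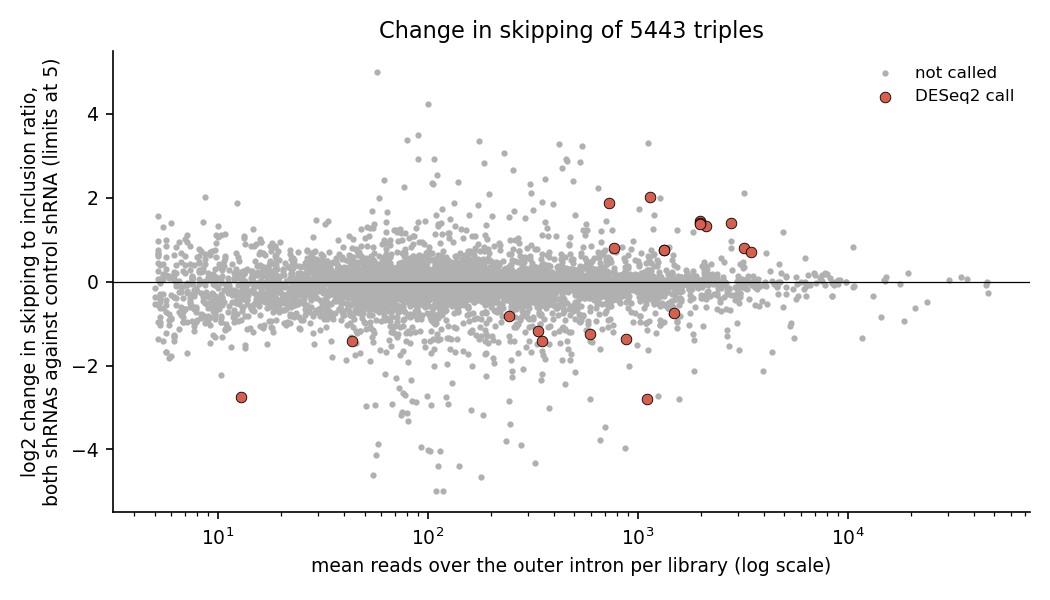
Log2 change in the ratio of skipping to inclusion reads, both shRNAs against control shRNA, by mean reads over the outer intron per library (log axis), for the 5443 triples tested, with changes beyond 5 drawn at 5. The 21 coloured points are the DESeq2 calls; none of the points passed edgeR's adjusted p of 0.05.

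The triple that passed both tools, in sh1, was a 144 nt exon of MYL6, the essential light chain of non-muscle myosin (chr12:56159587-56159730 on the + strand, GRCh38; length divisible by 3). Its skipping was 4.83 and 4.70% in sh1, 14.0 and 14.6% in sh2, and 12.9 and 13.9% in Con_sh. The outer intron had 555 and 722 reads in sh1, 1445 and 1829 in sh2, and 2309 and 2101 in Con_sh. Both sh1 libraries were low, and the sh2 libraries lay just above the controls. In sh1 skipping fell by 1.62 on the log2 scale against control (SE 0.10, edgeR adjusted p = 0.00667; DESeq2 adjusted p = 3.17e-28). Against sh2 it fell by 1.74 (SE 0.10, edgeR adjusted p = 0.00436; DESeq2 adjusted p = 3.06e-32). In sh2 against control the change was 0.11 (SE 0.10, edgeR adjusted p = 0.865). Left with 1 sh1 library, which is then taken to vary like the other groups, edgeR no longer called it: against control the change was -1.64 without sh1 replicate 1 (adjusted p = 0.256) and -1.60 without sh1 replicate 2 (adjusted p = 0.308), and against sh2 it was -1.76 (adjusted p = 0.181) and -1.72 (adjusted p = 0.215). The inner introns on either side of the exon did not pass the test for retention, the upstream one at 4.16 and 3.73% in sh1, 3.60 and 3.54% in sh2, and 3.27 and 3.95% in Con_sh.

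Apart from the 5 lowest by p between the shRNAs, the exons described from here on were chosen after their values were seen, as the rule for naming triples over both shRNAs needs an edgeR call and found none. With all 6 libraries, every one of their adjusted edgeR p-values for skipping is above 0.05, and directions are those of DESeq2 calls where one is given.

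TRAPPC2L encodes a subunit of the TRAPP complexes, which tether vesicles between the endoplasmic reticulum and the Golgi. It has a 99 nt exon (chr16:88859345-88859443, + strand) that was skipped in 84.6 and 90.1% of reads in sh1, 82.2 and 91.2% in sh2, and 98.2 and 97.8% in Con_sh. All 4 ZRSR2 shRNA libraries lay below both controls, and replicate 1 was the lower of each pair. The log2 change was -2.79 (SE 0.38, edgeR adjusted p = 0.212; DESeq2 adjusted p = 6.78e-06). Its change was -3.08 without sh2 replicate 2, with an adjusted edgeR p of 0.0391. About 49.9% of its outer reads also span a longer listed intron; with those subtracted the change was -2.91. A 406 nt exon of the gene was at 37.3 and 39.9% in sh1, 38.7 and 44.1% in sh2, and 45.7 and 44.1% in Con_sh (-0.29, SE 0.15, edgeR adjusted p = 0.897). The second sh2 library matched the lower control to 3 digits, and the remaining ZRSR2 shRNA libraries lay below both controls. A 178 nt exon was at 41.3 and 42.5% in sh1, 43.5 and 46.5% in sh2, and 45.99 and 44.7% in Con_sh, with the groups overlapping (-0.11, SE 0.13).

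PFDN5, a subunit of the prefoldin chaperone, went the other way by DESeq2 at a pair of exons. Its 75 nt exon (chr12:53297850-53297924, + strand) was skipped in 29.7 and 16.9% of reads in sh1, 32.5 and 21.8% in sh2, and 7.89 and 8.60% in Con_sh. The groups did not overlap, and replicate 1 was again the library farther from control in each pair. The log2 change was 1.87 (SE 0.33, edgeR adjusted p = 0.382; DESeq2 adjusted p = 0.00828), and 0.63 when inclusion was taken from the smaller inner count. The 437 nt exon upstream of it (chr12:53295839-53296275) was at 40.6 and 20.5% in sh1, 43.2 and 25.8% in sh2, and 9.81 and 10.7% in Con_sh (2.02, SE 0.45, edgeR adjusted p = 0.622; DESeq2 adjusted p = 0.0490). The exons are not separate evidence, since 63.6% of the outer reads of the 437 nt exon also span the longer outer intron of the 75 nt exon.

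**Figure D3:**
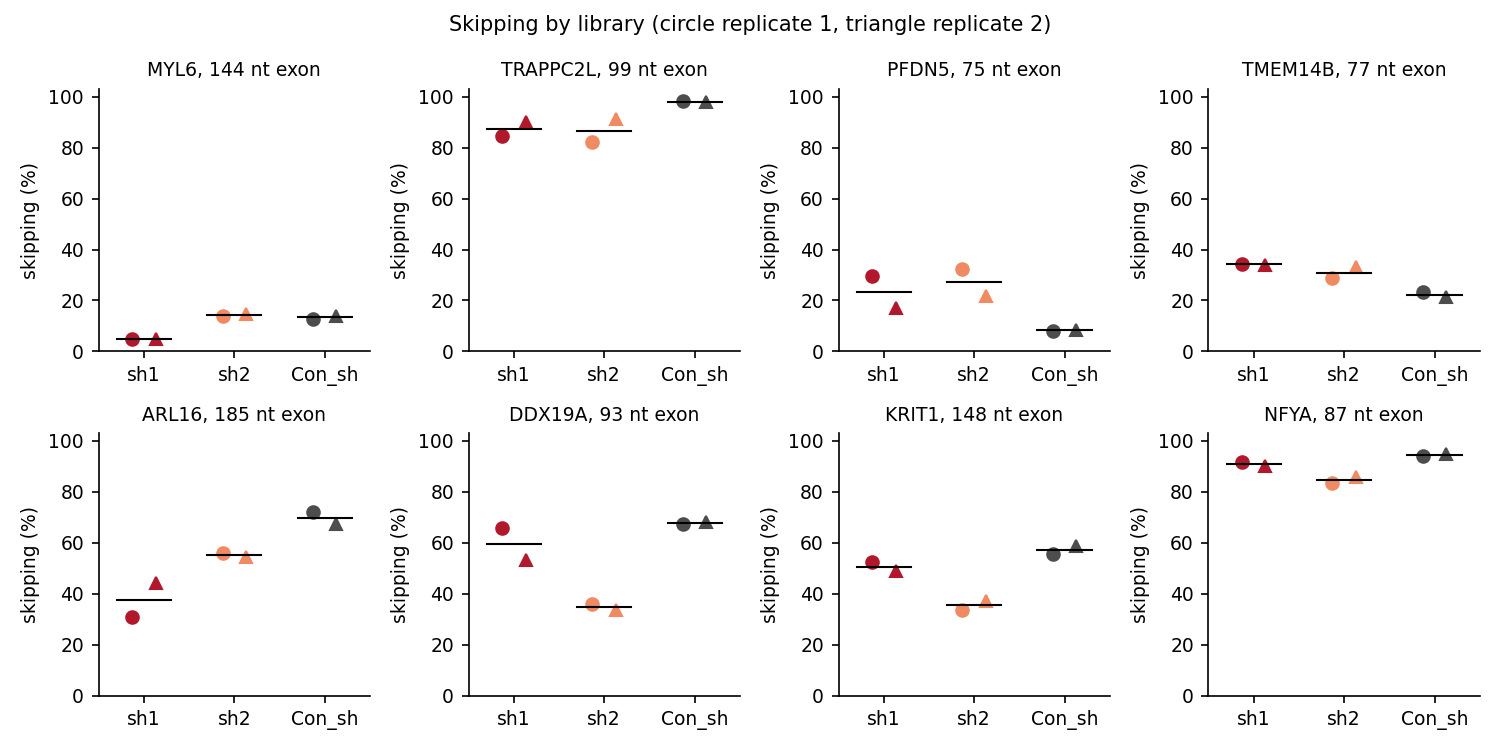
Skipping (%) of 8 cassette exons in each library; circles are replicate 1, triangles replicate 2, and bars the mean of the 2 libraries of a group. MYL6 is low in sh1 only (4.83 and 4.70%), TRAPPC2L and ARL16 lie below control and PFDN5 and TMEM14B above control in all 4 ZRSR2 shRNA libraries, and DDX19A and KRIT1 are lowest in sh2.

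TMEM14B, a multi-pass membrane protein, had a 77 nt exon (chr6:10749622-10749698, + strand) skipped in 34.2 and 34.1% of reads in sh1, 28.9 and 33.0% in sh2, and 23.3 and 21.2% in Con_sh (log2 change 0.75, SE 0.12, edgeR adjusted p = 0.260; DESeq2 adjusted p = 0.00359). Its 102 nt neighbour shares the same outer reads and gave 0.76. INSIG1, a membrane protein of the endoplasmic reticulum that restrains cholesterol synthesis, had a 71 nt exon at 92.5 and 90.6% in sh1, 91.4 and 91.1% in sh2, and 86.1 and 85.8% in Con_sh (0.80, SE 0.17, edgeR adjusted p = 0.612; DESeq2 adjusted p = 0.0454). Neither gene's groups overlapped.

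ARL16, an ARF-like small GTPase, had a 185 nt exon (chr17:81682491-81682675, - strand) skipped in 31.0 and 44.1% of reads in sh1, 56.0 and 54.4% in sh2, and 72.1 and 67.3% in Con_sh. The order was sh1, sh2, control, with no overlap between groups (-1.42, SE 0.26, edgeR adjusted p = 0.382; DESeq2 adjusted p = 0.0247). The zinc finger gene ZMYM5 showed the same order at a 286 nt exon on fewer reads, with outer counts between 17 and 70. It was at 23.1 and 28.6% in sh1, 33.3 and 39.6% in sh2, and 55.3 and 53.7% in Con_sh (-1.41, SE 0.28, edgeR adjusted p = 0.413; DESeq2 adjusted p = 0.0453).

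At 4 other exons skipping was lowest in sh2. In KRIT1, whose loss causes cerebral cavernous malformations, a 148 nt exon was at 52.4 and 49.0% in sh1, 33.7 and 37.2% in sh2, and 55.5 and 58.7% in Con_sh. The log2 change was -0.83 over both shRNAs (SE 0.17, edgeR adjusted p = 0.529; DESeq2 adjusted p = 0.0324). In NFYA, the regulatory subunit of the CCAAT-binding factor NF-Y, an 87 nt exon was at 91.7 and 90.2% in sh1, 83.3 and 85.9% in sh2, and 93.9 and 94.8% in Con_sh (-1.17, SE 0.22, edgeR adjusted p = 0.382; DESeq2 adjusted p = 0.0379). In NUMA1, a spindle pole protein, a 42 nt exon was at 95.8 and 95.5% in sh1, 91.6 and 92.9% in sh2, and 98.3 and 97.0% in Con_sh (-1.36, SE 0.27, edgeR adjusted p = 0.405; DESeq2 adjusted p = 0.0379). These 3 exons had no overlap between the ZRSR2 shRNA and control libraries.

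The fourth, a 93 nt exon of the RNA helicase gene DDX19A, was skipped in 65.7 and 53.3% of reads in sh1, 36.2 and 33.5% in sh2, and 67.3 and 68.1% in Con_sh (-1.24, SE 0.23, edgeR adjusted p = 0.382; DESeq2 adjusted p = 0.0208). Here 70.0% of the outer reads also span a longer listed intron, which had 635 and 370 reads in sh1, 44 and 36 in sh2, and 532 and 858 in Con_sh. With those subtracted the change was -0.10 (edgeR adjusted p = 0.978), so most of the difference lies in reads with the longer gap. DDX19A has a close paralog, DDX19B, and reads between near-identical copies may have been placed in either.

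LYVE1, a hyaluronan receptor, was also a DESeq2 call over both shRNAs, in a place where annotated genes overlap. Against control its log2 change was -4.57 in sh1 (DESeq2 adjusted p = 4.5e-04) and -0.91 in sh2 (DESeq2 adjusted p = 0.999). Its 435 nt exon had only 5 and 5 outer reads in sh1, 11 and 12 in sh2, and 31 and 13 in Con_sh, or 2.36 and 6.17% skipping in sh1, 26.5 and 39.3% in sh2, and 42.5 and 56.5% in Con_sh (-2.74, SE 0.51, edgeR adjusted p = 0.382; DESeq2 adjusted p = 0.0379). Of these outer reads, 94.8% also span a longer listed intron. The mean inner reads, the count on which triples were kept, were 211.5 and 81 in sh1, 41.5 and 30.5 in sh2, and 73 and 23 in Con_sh. Both sh1 libraries had more than any other library. The choice of this triple was therefore not independent of the group in which its skipping was low.

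Between the shRNAs, the 5 triples with the lowest p after edgeR were in MYL6, DYNC1LI2, GRB2, ACY1 and KRABD3. A 169 nt exon of GRB2, the adaptor that links receptor kinases to RAS, was skipped in 3.93 and 5.22% of reads in sh1, 1.39 and 1.47% in sh2, and 1.82 and 1.91% in Con_sh. The log2 change for sh1 against sh2 was 1.71 (edgeR adjusted p = 0.223; DESeq2 adjusted p = 0.00899). A 231 nt exon of DYNC1LI2, a light intermediate chain of dynein, was at 3.99 and 3.72% in sh1, 0.939 and 1.13% in sh2, and 2.02 and 2.22% in Con_sh (1.96, edgeR adjusted p = 0.223; DESeq2 adjusted p = 0.0253). The sh1 libraries lay above the sh2 libraries at both exons.

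Skipping was lower in sh1 than in sh2 in the remaining 2 genes. In ACY1, an aminoacylase, a 307 nt exon was at 2.84 and 3.28% in sh1, 8.81 and 10.1% in sh2, and 10.7 and 8.75% in Con_sh (-1.71 for sh1 against sh2, edgeR adjusted p = 0.645; DESeq2 adjusted p = 0.0376). In KRABD3 a 183 nt exon was at 7.24 and 8.67% in sh1, 23.1 and 21.9% in sh2, and 24.2 and 19.4% in Con_sh (-1.75, edgeR adjusted p = 0.645; DESeq2 adjusted p = 0.0307). In both genes the sh2 libraries lay within the range of the controls. The ACY1 exon lies where annotated genes overlap.

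Of the other triples that DESeq2 called in the single-shRNA or shRNA-against-shRNA comparisons, a 126 nt exon of the lipoyltransferase gene LIPT1 was at 69.7 and 68.7% in sh1, 42.1 and 46.2% in sh2, and 37.4 and 42.9% in Con_sh (1.74 for sh1 against control, edgeR adjusted p = 0.318; DESeq2 adjusted p = 0.00719). A 48 nt exon of MAP2K7, a kinase that activates JNK, was at 90.3 and 90.7% in sh1, 80.7 and 84.8% in sh2, and 91.7 and 91.0% in Con_sh (-1.13 for sh2 against control, edgeR adjusted p = 0.567; DESeq2 adjusted p = 0.00793). The replicates disagreed at a 201 nt exon of the survival motor neuron genes, near-identical copies whose reads cannot be assigned with confidence. In SMN2 it was at 78.1 and 49.4% in sh1, 7.37 and 12% in sh2, and 35.1 and 8.64% in Con_sh, and SMN1 gave the same values within 1 percentage point. TNIP1 and NPIPA9, the second a member of a multigene family, were also called. Another 5 of the 16 calls for sh1 and 4 of the 11 for sh2, all in 1 gene, are not described.

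EPB41 encodes protein 4.1R, which ties spectrin and actin to the red cell membrane; it had more triples than any other gene, 15. A 63 nt exon (chr1:29060422-29060484, + strand) is known for being included as erythroid cells mature, and it codes for part of the spectrin-actin binding domain. It was skipped in 76.6 and 87.2% of reads in sh1, 70.8 and 86.5% in sh2, and 88.4 and 90.2% in Con_sh. The ZRSR2 shRNA libraries lay below both controls, and sh2 replicate 1 and sh1 replicate 1, the libraries with the most HBE1, were the lowest. The log2 change was -0.96 (SE 0.45, edgeR adjusted p = 0.872), and -0.34 with those 2 libraries left out, a setting chosen after seeing the data. As those libraries also had the lowest skipping of this exon, leaving them out shrinks the change whatever their HBE1 level. The part of erythroid gene levels in the EPB41 difference was not tested. Of the 15 triples, 2 had an unadjusted edgeR p under 0.05, over a 213 nt and a 105 nt exon, both lower, at between 2.46 and 8.47% skipping. Both had a mean of 29.7 outer reads, so they may hold the same reads. In another triple with a mean of 234.5 outer reads, the same 105 nt exon had a log2 change of 0.04 (SE 0.13). The 213 nt exon in another triple was at -0.52 (SE 0.22).

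**Figure D4:**
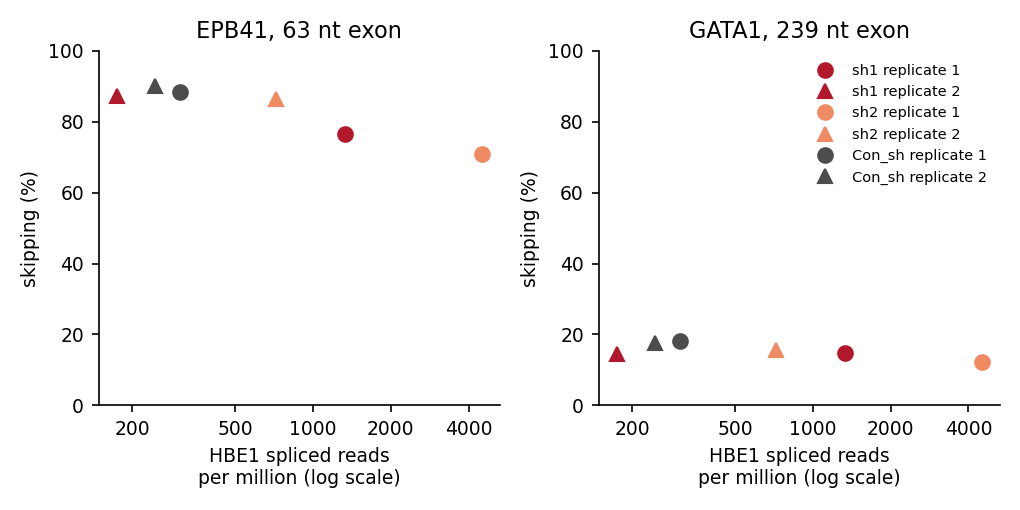
Skipping (%) of an exon of EPB41 and GATA1 by spliced reads of HBE1 in RPM (log axis) in each library. EPB41 skipping is lowest in sh2 replicate 1 (70.8%) and sh1 replicate 1 (76.6%), the libraries with the most HBE1, and GATA1 skipping is highest in the control libraries (18.1 and 17.5%).

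In GATA1, the erythroid and megakaryocytic transcription factor, skipping of the 239 nt exon that holds the usual start codon gives the short protein GATA1s. It was skipped in 14.7 and 14.6% of reads in sh1, 12.3 and 15.6% in sh2, and 18.1 and 17.5% in Con_sh. All 4 ZRSR2 shRNA libraries lay below the controls (-0.39, SE 0.13, edgeR adjusted p = 0.796), and the change was -0.29 without the 2 high-HBE1 libraries.

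The remaining members of the lists showed no edgeR call. Over the erythroid and megakaryocytic list, 46 triples in 17 genes were tested; 9 were higher and 3 lower at an unadjusted edgeR p under 0.05 (26.1%, against 5.82% over all triples tested), and 7 were called by DESeq2. All 9 of the higher ones and all 7 DESeq2 calls were in 1 gene, and the median log2 change was -0.17 against -0.06 over all triples tested. Among genes that host U12-type introns, 30 triples in 19 genes were tested, with a median of -0.18, and 0 were called by DESeq2. At an unadjusted edgeR p under 0.05, 2 were lower and 0 higher (6.67%, near the 5.82% over all triples tested). Those were a 177 nt exon of DIAPH3, a formin, at 4.74 and 3.33% in sh1, 0.631 and 2.66% in sh2, and 10.1 and 6.14% in Con_sh, and a 99 nt exon of NOP2, an rRNA methyltransferase, at 98.7 and 99.1% in sh1, 99.6 and 99.1% in sh2, and 99.7 and 99.6% in Con_sh. The other triples of DIAPH3 had changes of -0.17 (SE 0.28) and -0.36 (SE 0.21), and a 122 nt exon of NOP2 went the other way (0.78, SE 0.57). No gene of the minor spliceosome held a triple.

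Splicing regulators had 33 triples tested in 18 genes, with a median of 0.07. After adjustment 0 were called by either tool, and 1 was lower at an unadjusted edgeR p under 0.05 (3.03% of those tested). It was a 231 nt exon of RBM10, an RNA-binding protein that promotes exon skipping, at 19.96 and 20.2% in sh1, 18.5 and 22.7% in sh2, and 32.5 and 23.3% in Con_sh. Genes known for alternative exons had 67 triples tested, with a median of -0.16. At an unadjusted edgeR p under 0.05, 2 were lower and 0 higher (2.99%): a 24 nt exon of the clathrin assembly gene PICALM and an 87 nt exon of MAPT. The last was at 69.6 and 70.6% in sh1, 66.7 and 65.4% in sh2, and 77.8 and 81.8% in Con_sh on a mean of 68.5 inner reads. In NUMB, a Notch antagonist, a 144 nt exon was at 44.6 and 54.5% in sh1, 80.5 and 67.7% in sh2, and 68.6 and 58.5% in Con_sh, with both sh1 libraries below the controls and 1 sh2 library above them (-0.04, edgeR adjusted p = 1). Factors of nonsense-mediated decay (9 triples, median -0.10) and leukaemia and chromatin genes (22 triples, median 0.05) had 0 triples at an unadjusted edgeR p under 0.05 and 0 DESeq2 calls.

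Retention of the inner introns was compared next. Its boundary reads did not enter the choice of triples, but its spliced reads are the inner counts on which the triples were chosen, so shares called among inner introns and among all introns come from sets chosen differently on that count. Retention is given as the authors' percent of misspliced reads at an intron and was tested by edgeR on boundary against spliced reads. Of 134078 introns tested over both shRNAs, 443 were more retained (0.33%) and 28 less (0.0209%). Of the 10599 inner introns among them, 11 were more retained (0.104%) and 2 less (0.0189%). With the smaller of the boundary counts in place of both, 89 introns in all were called and 0 inner introns (edgeR, 352 inner introns at an unadjusted p under 0.05). Median retention of the inner introns was 1.49 and 1.22% in sh1, 1.56 and 1.48% in sh2, and 1.205 and 1.33% in Con_sh.

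The 11 more retained introns flank 10 triples in 8 genes, of which 2 triples, in TRAPPC2L and PFDN5, had a DESeq2 call for skipping. Skipping was higher in 3 and lower in 7, and the median log2 change was -0.05, against -0.06 over all triples tested. In CCDC43 the intron upstream of a 68 nt exon was retained at 52.7 and 33.6% in sh1, 47.8 and 35.4% in sh2, and 8.29 and 8.50% in Con_sh (edgeR adjusted p = 9.84e-10). Skipping of that exon was 61.5 and 64.3% in sh1, 65.0 and 61.4% in sh2, and 60.0 and 66.5% in Con_sh, with the groups overlapping (-0.02, SE 0.20, edgeR adjusted p = 1).

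HARS1, a tRNA synthetase, and EXOSC1, a subunit of the RNA exosome, had log2 changes in skipping of -0.08 (SE 0.15) and 0.10 (SE 0.16) beside introns that were more retained.

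Of the triples with a DESeq2 call, those over the 99 nt exon of TRAPPC2L and the 437 nt exon of PFDN5 had a more retained flanking intron. Beside the 99 nt exon of TRAPPC2L the downstream intron was retained at 33.7 and 21.7% in sh1, 38.0 and 22.8% in sh2, and 7.51 and 7.64% in Con_sh (edgeR adjusted p = 8.31e-08), and the upstream one at 21.1 and 11.3% in sh1, 18.8 and 11.6% in sh2, and 5.72 and 4.07% in Con_sh (edgeR adjusted p = 1.85e-04). Skipping was lower there by DESeq2, and in PFDN5 it was higher. The intron downstream of the 437 nt exon of PFDN5 was retained at 7.48 and 5.13% in sh1, 8.04 and 5.38% in sh2, and 2.46 and 2.22% in Con_sh (edgeR adjusted p = 5.63e-04). In both genes replicate 1 of each shRNA had the higher retention and the larger shift in skipping; a link between them was not tested. In ARL16 the more retained intron flanked another exon than the 185 nt one called by DESeq2. The intron upstream of a 114 nt exon was retained at 15.3 and 6.06% in sh1, 10.7 and 6.89% in sh2, and 3.31 and 2.30% in Con_sh (edgeR adjusted p = 0.0129). That exon was skipped in 19.7 and 18.7% of reads in sh1, 21.3 and 19.4% in sh2, and 21.5 and 31.3% in Con_sh (-0.53, SE 0.24, edgeR adjusted p = 0.872; DESeq2 adjusted p = 0.999).

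**Figure D5:**
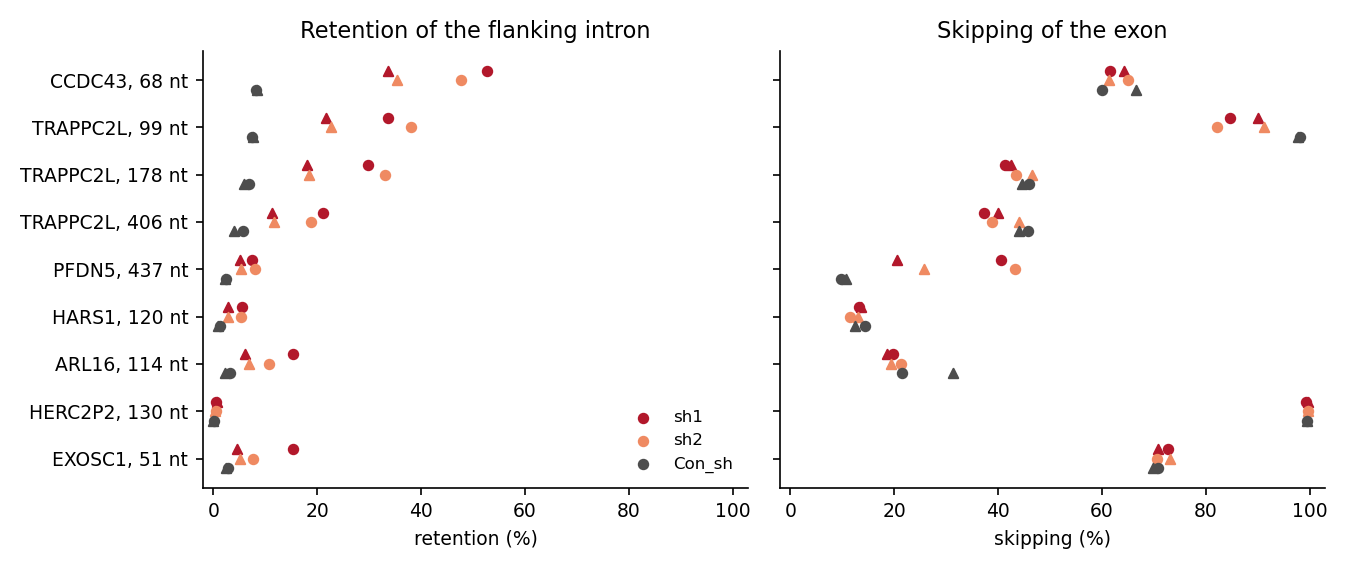
Retention (%) of the more retained flanking intron (left) and skipping (%) of the exon (right) in each library for 9 of the 10 triples beside such an intron; circles are replicate 1 and triangles replicate 2, with sh1 above sh2 above Con_sh in each row. Retention in CCDC43 is 33.6 to 52.7% in the ZRSR2 shRNA libraries and 8.29 and 8.50% in Con_sh, while its skipping overlaps between groups.

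At exons that were nearly always included, the 2 control libraries could differ widely. These genes were noticed among calls made with a library left out. A 160 nt exon of RPS2, a ribosomal protein gene with many processed copies, was skipped in 0.118 and 0.118% of reads in sh1, 0.146 and 0.174% in sh2, and 0.123 and 1.89% in Con_sh. The second control library was the high one, and without Con_sh replicate 1 edgeR called this exon and a 174 nt exon of the same gene lower (log2 changes -3.81 and -3.41). A 218 nt exon of AQP3, a water and glycerol channel, was at 6.28 and 5.67% in sh1, 0.282 and 0.193% in sh2, and 0.230 and 8.46% in Con_sh. One control library lay near the sh2 libraries and the other above both sh1 libraries. For sh1 against sh2 edgeR called it on the 4 libraries of that comparison alone (4.70, adjusted p = 0.00683).

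At the lower limit of 50 inner reads, the triples just inside were in SEMA4D, POLR1HASP and ARHGAP27, with mean inner reads of 50, 50.2 and 50.2 and mean skipping of 40.5, 21.4 and 37.0%. Those just outside were in CCHCR1, QTMAN and TRIM16, with 49.8, 49.8 and 49.7 reads and 2.88, 5.31 and 42.3%.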

How the data were processed

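RNA-seq tables of 6 K562 libraries were used, each listing 241593 introns. The authors deposited, per the file headers, counts of reads over each intron boundary and of spliced reads over the intron, the covered fraction of the intron, and a percent of misspliced reads. RNA was poly(A)-selected, per the labels' protocols. The submitters' processing notes name hg19, and no aligner or counting tool is given in the sources used here. The members and gene lists were chosen with earlier results of these data known.

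Triples were built from the intron positions (exon of 20 to 500 nt, mean inner spliced reads of at least 50). Skipping reads were the outer count, and inclusion reads were the sum of the inner counts less 2 times the outer count. Both were fitted per library with edgeR 4.0.16 (quasi-likelihood) in R 4.3.3, with library and the interaction of read kind and group as terms, over 5443 triples with at least 5 mean outer reads, and p-values were adjusted by Benjamini-Hochberg at 0.05 within each of 4 contrasts. DESeq2 1.42.0 with the same design was the alternative. Retention was fitted in the same way on boundary against spliced reads, for introns with at least 20 reads. Tables were made with Python 3.11.15. The fit was tested on simulated data before use, for both shRNAs against control. It recovered 89 of 100 simulated log2 changes of size 2 and 51 of 100 of size 1, with 10 false calls. Changes of size 1 can therefore be missed. Gene names came from RefSeq positions on GRCh38 for 5615 triples; 396 lie over overlapping genes. Strand was not stated for the counting, so overlapping and antisense genes cannot be told apart.

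Triples were named where edgeR called them, where they ranked lowest by p between the shRNAs, or where skipping was highest within the lists of splicing regulators and of genes known for alternative exons; all others were chosen after their values were seen. Replicates differed beyond sampling noise (chi-square per degree of freedom between 15.6 and 31.5), so none was counted as a repeat of another. Depth limits rare skipping, and fits cover the spread between libraries as well as counting error. Alternatives were other read minimums, the smaller inner count, outer reads less those of a containing intron, 1 triple per outer intron, column totals as scaling, a replicate block, leaving out each library, and 3 added after seeing the data. Some triples are counted in the totals and are not reported here by name.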

Additional observations from a re-analysis of the deposited data

Results flagged for a closer look

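The 144 nt exon of MYL6 differed between the shRNAs themselves. Skipping was 4.83 and 4.70% in sh1 and 14.0 and 14.6% in sh2, a log2 change of -1.74 (SE 0.10, edgeR adjusted p = 0.00436) for sh1 against sh2. In Con_sh it was 12.9 and 13.9%. ZRSR2 itself was at 9.94 and 9.82 RPM of spliced reads in sh1, 9.50 and 11.4 in sh2, and 25.7 and 21.5 in Con_sh. The part of ZRSR2 level, or of other targets of either shRNA, in the difference was not tested.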

How the results depend on the processing

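For both shRNAs against control, edgeR's count of 0 changed triples became 21 with DESeq2, and lay between 0 and 5 when 1 library was left out: 5 without sh2 replicate 2 (1 of them in TRAPPC2L) and 3 without Con_sh replicate 1 (2 in RPS2 and 1 in AQP3). For sh1 against control the count of 1 became 16 with DESeq2, between 0 and 3 with 1 library left out, and 0 with the 2 libraries highest in HBE1 left out, an alternative chosen after seeing the data. For sh2 against control the count of 0 became 11 with DESeq2 and between 0 and 3 with 1 library left out. For sh1 against sh2 the count of 1 became 12 with DESeq2, between 0 and 2 with 1 library left out, 2 on the 4 libraries compared alone, and 0 without the 2 high-HBE1 libraries. In that setting MYL6 was at -1.79 for sh1 against sh2 (edgeR adjusted p = 0.399) with fewer libraries in the fit. The other alternatives gave the same counts of 0, 1, 0 and 1.

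The difference in median skipping changed sign to 0.183 without sh2 replicate 1 and 0.339 without Con_sh replicate 2, within a range of -1.15 to 0.339 with 1 library left out. Retention calls over all introns, 471, became 89 with the smaller boundary count and lay between 269 and 590 with 1 library left out. For inner introns, 13, they became 8 at 50 or more reads, 0 with the smaller boundary count, and between 6 and 19 with 1 library left out. Same-numbered libraries did not deviate together beyond the limit of 0.1 in every pair (correlations 0.0706, 0.0674 and 0.143). With a replicate block, skipping counts were 0, 1, 0 and 1 and the median difference was -0.406. Triples at an unadjusted edgeR p under 0.05 rose from 317 to 420 over both shRNAs and from 290 to 410 for sh1. They rose from 338 to 468 for sh2 and from 370 to 507 for sh1 against sh2. Retention calls with the block were 666 over all introns and 25 over inner introns.

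Named triples that changed sign, none of them past edgeR's threshold, were TRA2A at -0.15 with containing reads subtracted, and CCDC43 at 0.233 and HERC2P2 at -0.093 with the smaller inner count. With 1 library left out, SMN2 lay between -0.31 and 2.20, SMN1 between -0.26 and 2.19, TRA2A between -0.23 and 0.57, CCDC43 between -0.22 and 0.18, and HARS1 between -0.20 and 0.055. The cause was not tested. No change is given for the 5 named exons with almost no inclusion reads, whose fitted standard errors were above 10.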
